A study of Homo sapiens with 12 samples.

Results

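The comparison sets 4 A172 libraries transfected with siRNA-2 against 4 transfected with siRNA-1, the 8 siRNA libraries of 12 in the series. Both small interfering RNAs were labelled as directed at the same transcript, uc.110, an ultraconserved region. The libraries were chosen by their labels and not by any measured value. The other 4 libraries received a scrambled siRNA. They are not part of the test and are given beside it as a reference level. A172 is an established adherent glioblastoma line, labelled wild type in all 3 groups. Every well was seeded with 300k cells and received 3 µL of a 20 µM siRNA stock with 9 µL of a Lipofectamine lipid reagent for 6 h, and RNA was collected on day 2. A transient transfection leaves a mixture of cells that took up more or less siRNA. The labels number 4 samples for each siRNA without saying whether they are separate cultures, so p-values measure the spread between these libraries, which may be technical.

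A small interfering RNA is a short duplex whose guide strand is loaded into an Argonaute protein and directs cleavage of a transcript that pairs with it along its length. The same guide can lower many other transcripts through its short seed, which can differ between siRNAs of different sequence. The duplex can be sensed as foreign RNA by the helicases RIG-I and MDA5, by OAS proteins, by the kinase PKR or by Toll-like receptors, which lead to type I interferon genes. Ultraconserved regions are stretches of the genome that are identical in human, mouse and rat, and some are transcribed. A pair of siRNAs labelled with one target therefore shares the named target and may differ in the seed. No source used here gives the siRNA sequences, so no seed was examined.

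Counts are whole reads per gene span, introns included, and overlapping spans share reads whatever their strand. Partners named below as sharing reads are overlapping spans with many reads of their own. The part in common was not measured, and not every such partner is named. Over the 44345 gene spans kept, the siRNA-1 libraries held 42969175 to 48857594 reads and the siRNA-2 libraries 42747388 to 52908504. A read falling on the 45S ribosomal RNA stretch was counted apart: it made up 1.81% to 16.2% of reads with siRNA-1, highest in replicate 3, and 3.52% to 9.33% with siRNA-2, highest in replicate 2. Scrambled replicate 1 stood apart from the other scrambled libraries, with reads in 35490 genes against 31438 to 31547. Of the glial markers, GFAP was at 8.10 to 8.93 CPM (counts-per-million of the scaled library) under siRNA-1 and 7.02 to 7.75 under siRNA-2, OLIG2 at 7.81 to 9.48 and 9.27 to 10.6, and SOX2 at 13.4 to 16.04 and 12.1 to 16.4. S100B and AQP4 had 0 reads in the 8 siRNA libraries, SLC1A2 had 36 reads with siRNA-1 and 31 with siRNA-2, and SLC1A3 had 3 and 15. The libraries thus held some glial markers and lacked others.

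The named target was barely counted. The interval of uc.110 (chr2:236162738-236162980, build hg38) held 2, 0, 1 and 2 reads in the siRNA-1 libraries and 3, 0, 4 and 0 in the siRNA-2 libraries. The scrambled libraries held 4, 0, 1 and 6. The sums were 5 reads with siRNA-1 and 7 with siRNA-2, and the groups overlapped. The ratio of siRNA-2 to siRNA-1 was 1.30, with a 95% interval of 0.354 to 5.18 that covers counting error only (two-sided exact Poisson test, p = 0.776). A difference in target level between the siRNAs was therefore not detectable at this depth. The gene interval that holds uc.110, LOC105373944 (chr2:236161340-236164886), held 12, 22, 14 and 19 reads with siRNA-1, 10, 9, 14 and 16 with siRNA-2, and 40, 23, 17 and 29 with the scrambled siRNA. The siRNA groups overlapped, and the log2 fold change of siRNA-2 against siRNA-1 was -0.56 ± 0.34 (SE), with an edgeR adjusted p of 0.222.

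Away from the target, the siRNAs separated cleanly. Of 24328 genes tested, 8227 differed between siRNA-2 and siRNA-1 (33.8%) with edgeR's quasi-likelihood test at a Benjamini-Hochberg adjusted p under 0.05. Of these, 4003 were higher with siRNA-2 (16.5%) and 4224 were lower (17.4%). The 4 libraries of each siRNA did not overlap in 7910 genes (32.5%). Most differences were small: the median size among called genes was 0.29 on the log2 scale, and the median log2 fold change of all genes tested was -0.00. A change of at least 2-fold was called in 353 genes higher and 162 lower with siRNA-2, and one of at least 1.5-fold in 1076 and 506. Scaling the 8 siRNA libraries on their own gave 4212 higher and 4011 lower. The side of the calls moved with abundance. Among genes with an average log2 CPM of 7 or more, 22.8% were higher and 33.1% lower, while below 1 these were 9.12% and 4.44%. Among protein-coding genes, which make up most of the lists below, 2739 of 14381 were higher (19.1%) and 3389 lower (23.6%), and among long noncoding RNA genes 606 of 4205 were higher and 390 lower. The list counts below are to be read against these shares.

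**Figure D1:**
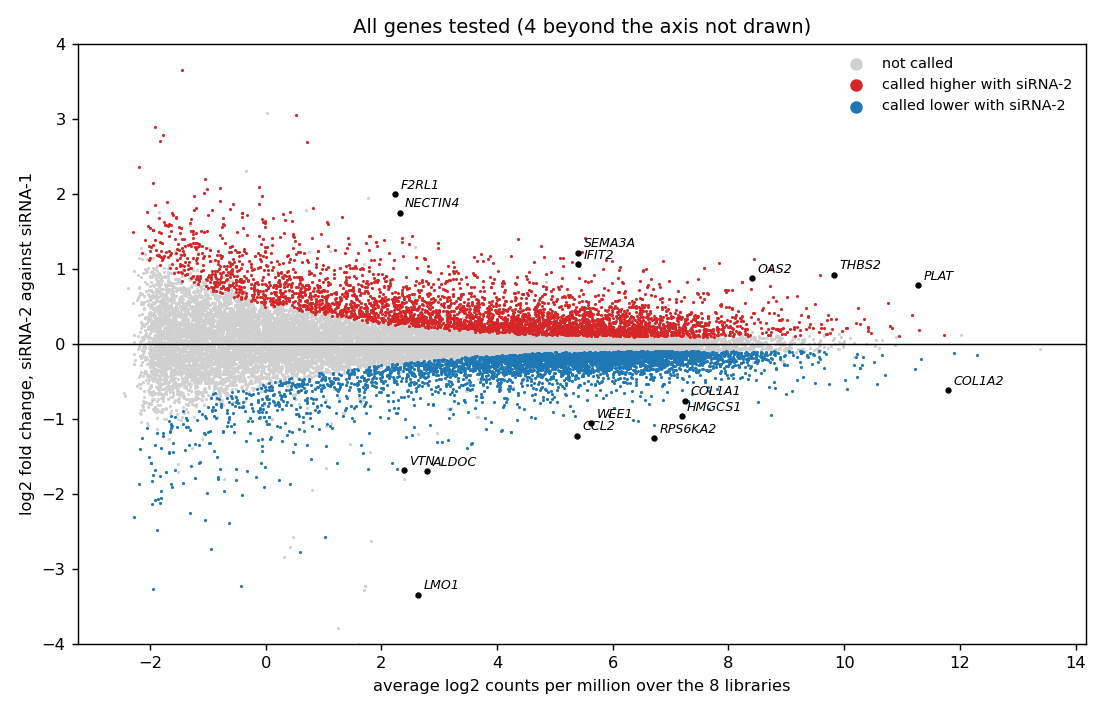
Log2 fold change of siRNA-2 against siRNA-1 (y axis) by average log2 counts-per-million over the 8 siRNA libraries (x axis), 1 point a gene, red where called higher with siRNA-2, blue where called lower and grey where not called. Called genes lie on both sides of 0, most within 1 log2 unit, and LMO1 stands lowest among the labelled genes at -3.35; 4 genes fall beyond the axis.

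Among genes with an average log2 CPM of 1 or more whose siRNA groups did not overlap, those with the largest rise with siRNA-2 included a receptor, an adhesion molecule and secreted factors, most of them under 10 CPM. F2RL1 (chr5:76818934-76835315), the protease-activated receptor PAR2, was at 2.00, 1.70, 1.80 and 1.91 CPM in the siRNA-1 libraries and at 8.46, 7.13, 7.59 and 6.53 in the siRNA-2 libraries. Every siRNA-2 library lay above every siRNA-1 library, and the scrambled libraries, at 2.10 to 3.07, lay just above siRNA-1. The log2 fold change was 2.00 ± 0.11 (SE), with an edgeR adjusted p of 4.39e-12. NECTIN4 (chr1:161070575-161090277), a cell adhesion molecule, was at 1.84, 2.79, 2.69 and 1.64 CPM under siRNA-1 and 9.69, 7.13, 6.40 and 7.05 under siRNA-2, against 0.671 to 1.09 with the scrambled siRNA. Here both siRNA groups lay above the scrambled libraries, siRNA-2 further (1.75 ± 0.19 (SE), edgeR adjusted p = 2.38e-05). ESM1 (chr5:54977867-54985593), a secreted proteoglycan also called endocan, was at 2.53, 2.94, 2.69 and 2.86 CPM under siRNA-1 and 7.72, 7.11, 7.40 and 7.26 under siRNA-2. The siRNA-1 libraries overlapped the scrambled ones (2.64 to 2.94), and the log2 fold change was 1.42 ± 0.09 (SE), with an edgeR adjusted p of 9.73e-11.

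TGFA, transforming growth factor alpha, a ligand of the EGF receptor, showed the opposite layout. It was at 0.844, 1.26, 1.05 and 0.778 CPM with siRNA-1, at 3.77, 3.17, 2.70 and 2.61 with siRNA-2 and at 2.80, 4.04, 3.93 and 3.82 with the scrambled siRNA. The siRNA-1 libraries were the low ones, and siRNA-2 lay near the scrambled level (1.63 ± 0.17 (SE), edgeR adjusted p = 1.76e-07); its span shares reads with LOC105374793. MANCR, a long noncoding RNA that shares reads with LOC105376373, was likewise at 1.73 to 1.89 CPM with siRNA-1, 4.30 to 5.63 with siRNA-2 and 6.47 to 7.94 with the scrambled siRNA (log2 fold change 1.44). UST, a uronyl sulfotransferase, rose by 1.44 ± 0.11 (SE), from 2.53 to 3.63 to 7.67 to 8.90 CPM, and PRR16 by 1.59 ± 0.15 (SE), from 0.867 to 1.22 to 2.84 to 3.30. FAM153B (1.69) and PAX8-AS1 (1.44, sharing reads with PAX8) completed the top of this class by fold change, besides the interval of MIR4683, whose reads are shared with FZD8 and are not given here as those of a microRNA. Below that level of abundance lay 267 of the 353 rises of at least 2-fold, CDKN2A, described with the CDK inhibitors, among them.

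Among well-counted genes (average log2 CPM at least 5), those with the smallest p higher with siRNA-2 were GPRC5B, MAP3K3, SEMA3A, TMEM154, ZDHHC7 and SERPINH1. ZDHHC7, a palmitoyltransferase, was at 43.9, 45.2, 47.7 and 48.2 CPM under siRNA-1 and 94.9, 95.9, 91.4 and 93.1 under siRNA-2. The scrambled libraries, at 96.2 to 100, sat beside siRNA-2, so that siRNA-1 was the group apart (1.02 ± 0.04 (SE), edgeR adjusted p = 5.13e-14). MAP3K3, the kinase MEKK3, was at 35.8 to 40.02 CPM with siRNA-1, 78.8 to 82.5 with siRNA-2 and 62.1 to 69.1 with the scrambled siRNA (log2 fold change 1.12; it shares reads with LIMD2). SERPINH1, the collagen chaperone HSP47, was instead at 275 to 312 CPM with siRNA-1, 556 to 586 with siRNA-2 and 349 to 387 with the scrambled siRNA, so that the scrambled level lay between the siRNAs (1.00). TMEM154 (0.98) and GPRC5B (0.99, sharing reads with IQCK) also had scrambled levels between the siRNAs, at 86.2 to 89.6 and 67.8 to 76.2 CPM.

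The strongest fall was in LMO1, a LIM-domain transcription cofactor (chr11:8224180-8277878), whose span shares reads with LOC105376536. It was at 12.8, 11.5, 10.5 and 10.5 CPM with siRNA-1, at 1.23, 1.13, 1.14 and 0.974 with siRNA-2 and at 5.77, 4.93, 5.02 and 5.36 with the scrambled siRNA. The 3 groups did not overlap: siRNA-1 stood above the scrambled level and siRNA-2 below it. The log2 fold change of siRNA-2 against siRNA-1 was -3.35 ± 0.11 (SE), with an edgeR adjusted p of 1.82e-15. ALDOC (chr17:28573115-28576963), the brain-type aldolase of glycolysis, was at 11.4, 9.70, 10.4 and 11.1 CPM under siRNA-1 and 3.30, 3.23, 3.56 and 3.06 under siRNA-2, against 1.63 to 2.82 with the scrambled siRNA. Both siRNA groups lay above the scrambled range, siRNA-1 much further (-1.69 ± 0.09 (SE), edgeR adjusted p = 1.38e-12). The same order held for VTN, the adhesive plasma protein vitronectin, at 7.29 to 9.37, 2.31 to 2.86 and 0.994 to 1.47 CPM with siRNA-1, siRNA-2 and scrambled siRNA (-1.68 ± 0.11 (SE)), and for CHRNA1, a muscle-type acetylcholine receptor subunit, at 4.26 to 5.16, 1.25 to 2.04 and 0.391 to 0.649 (-1.46 ± 0.14 (SE)).

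SERPINA5, a protease inhibitor, was at 5.43 to 8.58 CPM under siRNA-1 and 2.18 to 2.48 under siRNA-2, with the scrambled range between them at 4.14 to 5.14 (-1.59 ± 0.12 (SE)). GDF5, a bone morphogenetic protein family ligand that shares reads with GDF5-AS1, had the same layout, at 2.29 to 3.91, 1.10 to 1.19 and 1.41 to 1.88 CPM (-1.36 ± 0.17 (SE)). CGB5, a chorionic gonadotropin subunit, has near-identical gene copies among which reads may be split. It was at 14.6 to 19.04 CPM under siRNA-1 and 4.64 to 7.18 under siRNA-2 (log2 fold change -1.39). LRRTM1 (-1.67) lies within CTNNA2 and shares its reads. The intervals of RPS6KA2-IT1 and MIR1913 lie inside RPS6KA2 and are not counted apart from it.

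RPS6KA2 (chr6:166409291-166863603), the ribosomal S6 kinase RSK3 downstream of ERK, had the smallest p of all genes tested. It was at 148, 153, 148 and 145 CPM with siRNA-1, at 60.8, 62.6, 63.8 and 61.4 with siRNA-2 and at 116, 121, 126 and 118 with the scrambled siRNA. The 3 groups did not overlap, with siRNA-2 far below the scrambled range and siRNA-1 above it (-1.26 ± 0.04 (SE), edgeR adjusted p = 3.63e-16). SYBU, the kinesin adaptor syntabulin, was at 78.7 to 83.2 CPM under siRNA-1 and 39.2 to 43.3 under siRNA-2, and the scrambled range of 43.3 to 45.01 met the upper end of the latter (log2 fold change -0.95). CPA4, a carboxypeptidase sharing reads with LOC105375503, was at 194 to 201 CPM with siRNA-1, 113 to 121 with siRNA-2 and 64.2 to 76.2 with the scrambled siRNA (-0.76). Leaving out any single library, and leaving out the library of highest 45S share from each siRNA, kept the direction and the call of each gene named so far as differing.

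**Figure D2:**
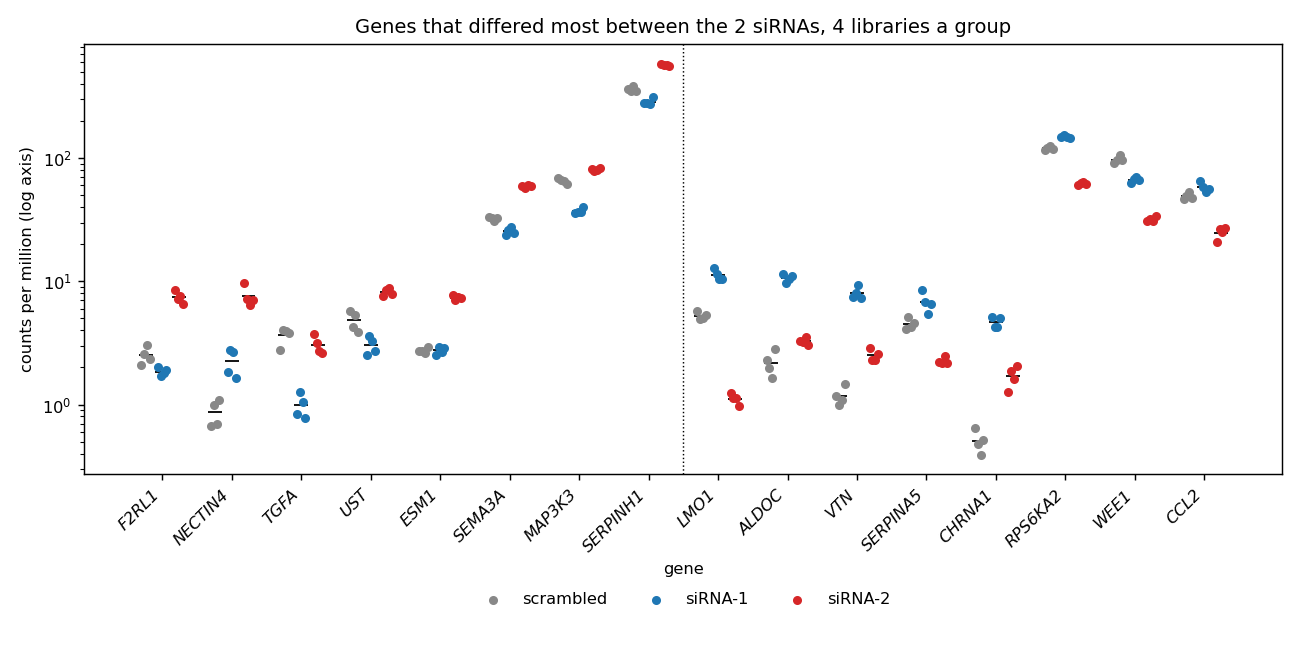
Counts-per-million (log axis) of 16 genes in the 4 libraries of each group, grey for scrambled, blue for siRNA-1 and red for siRNA-2, 1 point a library, with a bar at the group mean. Left of the dotted line siRNA-2 lies above siRNA-1, and right of it below. The scrambled libraries lie beside siRNA-1 (ESM1), beside siRNA-2 (TGFA), between the siRNAs (LMO1, RPS6KA2), below both (NECTIN4, ALDOC) or above both (WEE1).

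Interferon-stimulated genes were higher with siRNA-2 than with siRNA-1, and both siRNAs stood above the scrambled libraries. Of the 53 tested members of the interferon list, 44 were higher with siRNA-2 and 0 were lower (83.0% called, against 33.8% of all genes tested). The median log2 fold change was 0.37, against -0.00 over all genes. Summed over the list, the siRNA-1 libraries held 11180 to 11690 CPM, the siRNA-2 libraries 14060 to 14880 and the scrambled libraries 2968 to 5068. The median log2 ratio to the scrambled mean was 1.44 with siRNA-1 and 1.81 with siRNA-2, values that share the scrambled libraries. The 9 members not called were IFI44, HERC5, IFITM2, IFITM3, DDX60, DDX60L, STAT2, EIF2AK2 and APOL6, with log2 fold changes from 0.01 to 0.10. EIF2AK2 encodes the RNA-activated kinase PKR, and STAT2 is a subunit of the interferon-activated transcription factor.

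The interferon-stimulated response element is the promoter motif bound by that factor and by related IRF proteins. Promoters of 3 members are shown to set the motif beside the values: IFIT3 and BST2 were called, and HERC5, not called, holds the motif too. They were picked after the values were seen, from the members that the RefSeq promoter table lists (GRCh38.p14, first start listed for each gene, 250 bases before to 50 after it, 5′ to 3′ on the gene's strand). Capitals mark each match to GAAANNGAAA or its reverse complement, and overlapping matches run together.
IFIT3, chr10:89327747-89328046, + strand: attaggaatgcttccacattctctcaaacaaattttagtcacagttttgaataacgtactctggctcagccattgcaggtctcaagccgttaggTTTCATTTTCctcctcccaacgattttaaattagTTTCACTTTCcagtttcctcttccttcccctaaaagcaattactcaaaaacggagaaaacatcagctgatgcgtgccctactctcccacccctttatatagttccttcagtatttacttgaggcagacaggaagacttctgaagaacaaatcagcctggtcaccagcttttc
BST2, chr19:17405581-17405880, - strand: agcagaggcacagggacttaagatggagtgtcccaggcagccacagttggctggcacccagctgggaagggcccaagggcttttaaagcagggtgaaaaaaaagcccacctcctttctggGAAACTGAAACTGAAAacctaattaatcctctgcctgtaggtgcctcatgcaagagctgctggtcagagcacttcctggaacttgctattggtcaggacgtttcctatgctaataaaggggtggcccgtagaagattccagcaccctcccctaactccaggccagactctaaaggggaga
HERC5, chr4:88456869-88457168, + strand: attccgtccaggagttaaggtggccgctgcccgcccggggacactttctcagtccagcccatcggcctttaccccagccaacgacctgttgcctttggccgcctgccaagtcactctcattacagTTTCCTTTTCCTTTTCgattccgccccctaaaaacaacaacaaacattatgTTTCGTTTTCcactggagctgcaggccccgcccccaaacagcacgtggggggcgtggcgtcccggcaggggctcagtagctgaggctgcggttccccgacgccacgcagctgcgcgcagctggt
IFIT3 has 2 matches, BST2 2 and HERC5 3. These letters occur on either strand in 996 of 27305 promoters of this length (3.65%). Among interferon list members with a promoter in the table they occur in 27 of 41 (65.9%), in 21 of 34 that were called (61.8%) and in 6 of 7 that were not (85.7%). A match is a description of the letters, not a measured site.

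IFIT2, an RNA-binding antiviral protein, had one of the larger differences of the list, at 26.6, 28.3, 29.02 and 24.99 CPM under siRNA-1 and 54.9, 55.9, 57.02 and 59.99 under siRNA-2. The scrambled libraries were at 11.3, 8.56, 9.80 and 10.3, and the 3 groups were fully apart (1.06 ± 0.05 (SE), edgeR adjusted p = 4.73e-13; it shares reads with LOC105378419). OAS2, a synthase activated by double-stranded RNA, was at 232, 237, 237 and 250 CPM with siRNA-1, 420, 431, 449 and 457 with siRNA-2 and 114, 50.7, 46.7 and 29.6 with the scrambled siRNA. Scrambled replicate 1 was the highest of its group, and the siRNA groups did not overlap (0.88 ± 0.04 (SE), edgeR adjusted p = 1.54e-13). IFIT3, a partner of IFIT2 whose promoter is printed above, was at 213, 221, 210 and 222 CPM under siRNA-1 and 380, 386, 373 and 394 under siRNA-2 (log2 fold change 0.82; shared with LOC101926887). CMPK2, a mitochondrial nucleotide kinase that shares reads with RSAD2, was at 68.5 to 76.2 and 117 to 130 CPM (0.79), and the restriction factor BST2 at 366 to 432 and 605 to 675 (0.62). HERC5, the ligase of the ubiquitin-like protein ISG15, was at 49.8 to 56.2 and 53.6 to 61.9 CPM, overlapping (0.10, edgeR adjusted p = 0.123).

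The count of interferon genes depended on which libraries set the spread. With all 12 libraries in the fit, 22 of the 53 were called higher with the same median of 0.37, and with 11 libraries, scrambled replicate 1 left out, 40 were. In scrambled replicate 1 the interferon genes named above were higher than in the other scrambled libraries, such as CMPK2 at 34.5, 17.2, 15.5 and 13.3 CPM. Among the 29 members that overlap no other tested gene, 24 were called higher.

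Of 26 tested sensors of foreign RNA and their adaptors, some of them induced by interferon themselves, 13 were higher with siRNA-2 and 2 lower, with a median of 0.24 (50% higher, against 16.5% of all genes tested). OAS1 was at 219 to 233 CPM under siRNA-1 and 296 to 322 under siRNA-2 (0.47 ± 0.04 (SE)), and the scrambled range was 28.3 to 75.2. DHX58, the regulator LGP2, was at 55.1, 52.3, 49.7 and 49.4 CPM under siRNA-1 and 73.8, 74.1, 74.5 and 78.1 under siRNA-2 (0.54 ± 0.04 (SE), edgeR adjusted p = 1.74e-09). DDX58, the helicase RIG-I, was at 136 to 144 and 170 to 195 CPM (0.41; its span reaches ACO1), and ADAR, an RNA deaminase, at 646 to 657 and 711 to 773 (0.21; shared with CHRNB2). The adaptors and kinases that relay the signal were among the 11 not called, with log2 fold changes of 0.02 for MAVS, -0.02 for TBK1, 0.02 for IRF3 and 0.08 for STING1. TLR4 (-0.21), a Toll-like receptor, was one of the 2 lower members.

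The interferons themselves were near the limit of detection. IFNB1 had 3, 4, 3 and 2 reads in the siRNA-1 libraries and 3, 4, 6 and 6 in the siRNA-2 libraries, against 2, 0, 0 and 0 with the scrambled siRNA, and the ratio of siRNA-2 to siRNA-1 was 1.46 (95% interval 0.672 to 3.29). IFNL1 had 17 reads in all with each siRNA and 0 with the scrambled siRNA, and IFNL3 had 12 with siRNA-1 and 7 with siRNA-2. IFNA1 and IFNG had 0 reads in the 12 libraries. No difference in interferon transcripts between the siRNAs was detectable at this depth.

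Antigen presentation genes, of which most HLA genes were not analysed here, were called higher in 5 of 8 and lower in 0. The NF-kB, cytokine and chemokine list was mixed, with 7 of 25 higher and 3 lower and a median of 0.04. CCL2, the chemokine that attracts monocytes, was at 64.9, 58.8, 53.5 and 55.7 CPM under siRNA-1 and 20.8, 26.6, 25.2 and 26.99 under siRNA-2. The siRNA-2 libraries lay below the scrambled range of 46.9 to 52.9 and the siRNA-1 libraries above it (-1.22 ± 0.09 (SE), edgeR adjusted p = 1.46e-06). TNFAIP3, the NF-kB inhibitor A20, was higher with siRNA-2, at 14.1 to 14.5 against 8.15 to 9.58 CPM (0.68 ± 0.07 (SE)). TNFSF15, a TNF family cytokine, was lower, at 0.487 to 0.825 against 0.937 to 1.62 CPM (-0.91 ± 0.23 (SE)).

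**Figure D3:**
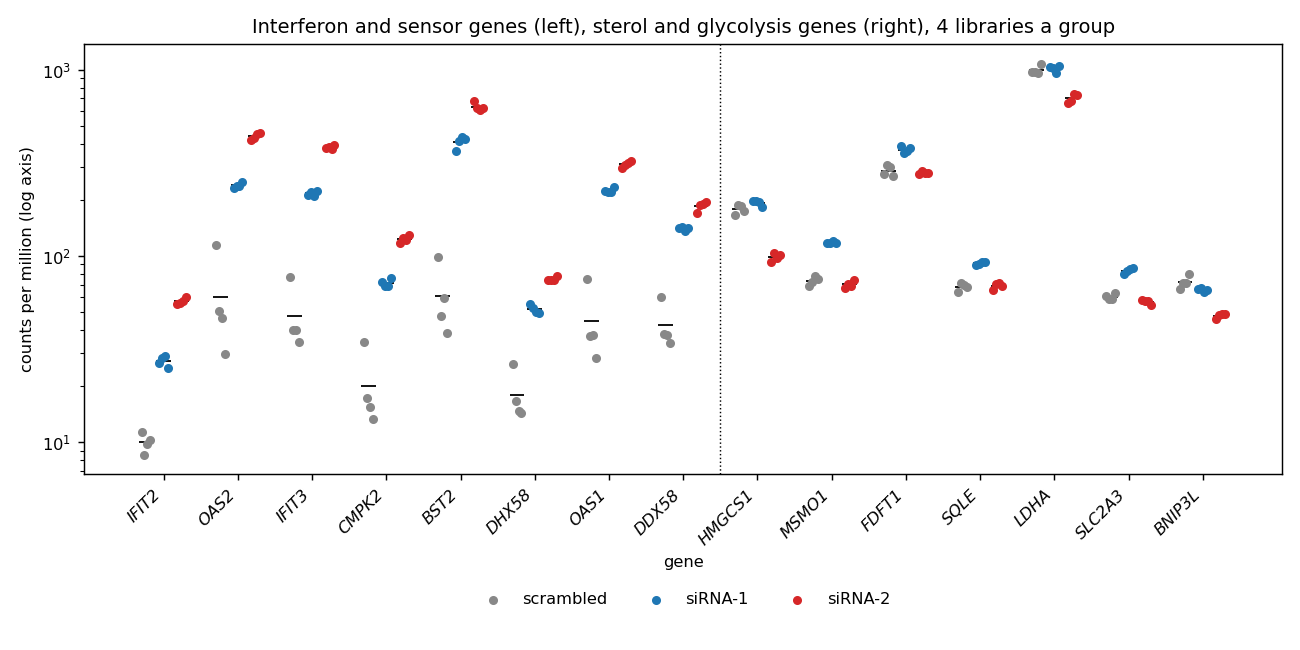
Counts-per-million (log axis) of interferon and sensor genes (left of the dotted line) and of sterol and glycolysis genes (right) in the 4 libraries of each group, 1 point a library, with a bar at the group mean. On the left siRNA-2 stands above siRNA-1 and both above scrambled; on the right HMGCS1, MSMO1, LDHA and SLC2A3 are lower with siRNA-2.

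Of 45 genes of G2/M and mitosis, 21 were higher with siRNA-2 and 2 lower (46.7% and 4.44%), with a median of 0.11, and 22 were not called. TOP2A, the topoisomerase of dividing cells, was at 193 to 215 CPM with siRNA-1, 256 to 282 with siRNA-2 and 342 to 370 with the scrambled siRNA (0.38 ± 0.04 (SE)), so that both siRNAs lay below scrambled, siRNA-1 further. FOXM1, a transcription factor of G2/M genes, was at 70.6 to 76.7 and 97.3 to 107 CPM with siRNA-1 and siRNA-2 (0.50 ± 0.04 (SE); shared with ITFG2 and RHNO1). The list's summed level was 3805 to 4049 CPM with siRNA-1, 4298 to 4694 with siRNA-2 and 4830 to 5162 with the scrambled siRNA. CDK1, CCNB1, CCNB2, CCNA2 and PLK1 were among the 22 members not called, with log2 fold changes from -0.03 to 0.09. MAD2L1 (-0.18) and BORA (-0.23) were lower, and without the library of highest 45S share from each siRNA 0 were called lower. Genes of G1/S and DNA replication were 13 higher and 4 lower of 42 (30.95% and 9.52%), with a median of 0.03. Of protein-coding genes, 19.1% were higher and 23.6% lower. MCM6 (-0.23), RRM2 (-0.19) and POLA1 (-0.16) were among the 4 lower, and E2F7 (0.43) and DTL (0.39) were among the higher.

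Histone genes of the kind expressed in S phase, whose transcripts mostly lack a poly(A) tail, were higher in 13 of 33 and lower in 1. These shares were 39.4% and 3.03%, against 19.1% and 23.6% of protein-coding genes, and the median was 0.40. H1-2, a linker histone, was at 75.1, 87.7, 91.1 and 78.6 CPM under siRNA-1 and 134, 132, 125 and 128 under siRNA-2 (0.64 ± 0.05 (SE), edgeR adjusted p = 3.31e-08). The scrambled libraries, at 56.1 to 67.7, were the lowest. H2BC12 was at 171 to 208, 261 to 300 and 99.5 to 114 CPM with siRNA-1, siRNA-2 and scrambled siRNA (0.54 ± 0.06 (SE)). The labels give total RNA as the extracted molecule and no source used here says whether libraries were made by poly(A) selection or ribosomal RNA depletion, so how fully RNA without a poly(A) tail was captured was not tested.

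Cyclins, CDKs and CDK inhibitors were higher in 10 of 20 and lower in 3. WEE1 (chr11:9572895-9593460), the kinase that holds CDK1 inactive before mitosis, was at 62.7, 67.2, 70.8 and 65.98 CPM with siRNA-1, 30.8, 32.2, 30.9 and 33.9 with siRNA-2 and 91.5, 96.1, 105 and 97.2 with the scrambled siRNA. Both siRNAs lay below the scrambled range, siRNA-2 far below (-1.06 ± 0.05 (SE), edgeR adjusted p = 2.09e-13). CDK2, the G1/S kinase, was at 68.8, 69.2, 68.7 and 69.7 CPM under siRNA-1 and 95.7, 98.4, 97.9 and 96.2 under siRNA-2 (0.49 ± 0.04 (SE)), with the scrambled range at 76.7 to 85.9 between them. CDKN2C (0.35) and CDKN2D (0.37), inhibitors of CDK4 and CDK6, were higher with siRNA-2. CDKN2A, which encodes the tumour suppressors p16INK4a and ARF and lies in a locus that A172 is known to have lost, had 0 reads in each siRNA-1 library, 23, 14, 41 and 45 with siRNA-2 and 31, 23, 18 and 26 with the scrambled siRNA. Set against an assumed floor of 3 reads over the siRNA-1 group, the siRNA-2 sum of 123 reads was 37.7-fold higher. That figure leaves out counting error in the siRNA-2 sum. The neighbouring CDKN2B had 2 reads with siRNA-1, 0 with siRNA-2 and 1 with the scrambled siRNA. Where in the CDKN2A span its reads fall cannot be read from the counts, so whether they are CDKN2A transcripts was not tested. The span is among the 10 counted higher.

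Targets of p53 were higher with siRNA-2 in 19 of 33 (57.6%) and lower in 2 (6.06%), with a median of 0.21. Of protein-coding genes, 19.1% were higher and 23.6% lower. XPC, a DNA damage recognition protein, was at 63.3, 70.2, 68.1 and 65.8 CPM under siRNA-1 and 103, 99.01, 93.6 and 90.1 under siRNA-2 (0.53 ± 0.04 (SE), edgeR adjusted p = 5.25e-09), against 55.4 to 59.6 with the scrambled siRNA. PLK2, a stress-induced kinase, was at 142 to 162 and 189 to 194 CPM (0.33 ± 0.04 (SE)), and DDB2, another damage recognition protein, at 60.9 to 63.2 and 74.7 to 84.7 (0.31). Several other members were spread within siRNA-2, and the next 3 were named after their values were seen for that reason. GDF15, a secreted stress cytokine, was at 109, 142, 189 and 145 CPM with siRNA-1, 434, 290, 248 and 261 with siRNA-2 and 36.9 to 38.9 with the scrambled siRNA (1.07 ± 0.25 (SE), edgeR adjusted p = 0.0175). CDKN1A, the CDK inhibitor p21, was at 412, 468, 517 and 430 and 924, 672, 614 and 623 CPM (0.63 ± 0.16 (SE), edgeR adjusted p = 0.0230). FDXR, a mitochondrial reductase, was at 27.4, 28.5, 33.5 and 28.6 and 54.6, 40, 40.2 and 39.5 CPM (0.56 ± 0.13 (SE)). In each of these siRNA-2 replicate 1 was the highest library, and the siRNA groups did not overlap. Without siRNA-1 replicate 2 the call of GDF15 was lost (edgeR adjusted p = 0.0511), and that of CDKN1A was lost without siRNA-1 replicate 1, 2 or 4 (0.0641, 0.0572 and 0.0655). Without siRNA-2 replicate 1, 16 members were called higher, with a median of 0.19. MDM2 (0.20), CCNG1 (0.02) and SESN1 (0.02) were not called, and TNFRSF10B (-0.22) and ZMAT3 (-0.19) were lower.

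Genes of cholesterol synthesis were lower with siRNA-2 than with siRNA-1. Of 28 tested, 20 were lower (71.4%) and 2 higher (7.14%), with a median of -0.20. Among protein-coding genes 23.6% were lower and 19.1% higher. HMGCS1 (chr5:43285914-43313512), the synthase that feeds the mevalonate pathway, was at 198, 196, 195 and 184 CPM under siRNA-1 and 92.8, 103, 97.5 and 102 under siRNA-2. The scrambled libraries, at 166, 187, 184 and 175, lay at or near siRNA-1, so that siRNA-2 was the group apart (-0.97 ± 0.04 (SE), edgeR adjusted p = 7.23e-14). MSMO1, a sterol methyl oxidase, had the other layout, at 117, 118, 121 and 118 CPM with siRNA-1, 67.2, 70.9, 68.8 and 74.3 with siRNA-2 and 68.5 to 78.2 with the scrambled siRNA (-0.75 ± 0.04 (SE), edgeR adjusted p = 1.38e-12). FDFT1, squalene synthase, was at 358 to 389, 275 to 286 and 269 to 306 CPM with siRNA-1, siRNA-2 and scrambled siRNA (-0.41), and SQLE, squalene epoxidase, at 88.99 to 92.7, 65.2 to 71.5 and 64.1 to 71.7 (-0.40). In both, siRNA-2 overlapped the scrambled range and siRNA-1 lay above it. SREBF2, the transcription factor of the pathway, was lower (-0.28). TM7SF2 (0.66), a sterol reductase, was one of the 2 higher members. The letters TCACNCCAC of the sterol regulatory element occur in 1 of 21 promoters of the tested members in the table (4.76%) and in 313 of 27305 overall (1.15%).

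Fatty acid synthesis and lipid storage genes were lower in 12 of 24 and higher in 4. SCD, the desaturase that makes monounsaturated fatty acids, was at 1985, 1671, 1700 and 1827 CPM under siRNA-1 and 1092, 1285, 1279 and 1290 under siRNA-2 (-0.54 ± 0.06 (SE), edgeR adjusted p = 4.26e-05), and both lay below the scrambled range of 2087 to 2405. FASN, fatty acid synthase, was at 1216 to 1535 CPM with siRNA-1, 983 to 1024 with siRNA-2 and 761 to 993 with the scrambled siRNA (-0.45 ± 0.06 (SE)), with siRNA-1 the high group. Fatty acid oxidation genes were lower in 9 of 24 (37.5%) and higher in 4 (16.7%). HADHA and HADHB encode the subunits of the mitochondrial trifunctional protein and differed in direction. HADHB was at 65.3 to 70.5 CPM under siRNA-1 and 51.9 to 56.2 under siRNA-2 (-0.35 ± 0.04 (SE)). HADHA was at 60.8 to 68.9, 118 to 135 and 167 to 188 CPM with siRNA-1, siRNA-2 and scrambled siRNA (0.99 ± 0.05 (SE)), and its span shares reads with GAREM2, which differed alike (0.83 ± 0.05 (SE)).

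Glycolysis and hypoxia response genes were also lower with siRNA-2, in 26 of 38 (68.4%), with 4 higher (10.5%) and a median of -0.22. Of protein-coding genes, 23.6% were lower and 19.1% higher. Promoters of ALDOC and LDHA are shown because both were called and both hold the core of the hypoxia response element, the motif bound by HIF. Capitals mark ACGTG or its reverse complement, and the palindrome CACGTG counts on both strands (RefSeq, GRCh38.p14).
ALDOC, chr17:28576846-28577145, - strand: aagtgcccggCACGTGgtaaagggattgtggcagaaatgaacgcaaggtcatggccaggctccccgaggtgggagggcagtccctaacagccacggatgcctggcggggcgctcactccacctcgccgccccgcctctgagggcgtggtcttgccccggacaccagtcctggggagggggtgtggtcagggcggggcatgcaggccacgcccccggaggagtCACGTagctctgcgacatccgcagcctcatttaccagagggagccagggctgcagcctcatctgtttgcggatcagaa
LDHA, chr11:18394313-18394612, + strand: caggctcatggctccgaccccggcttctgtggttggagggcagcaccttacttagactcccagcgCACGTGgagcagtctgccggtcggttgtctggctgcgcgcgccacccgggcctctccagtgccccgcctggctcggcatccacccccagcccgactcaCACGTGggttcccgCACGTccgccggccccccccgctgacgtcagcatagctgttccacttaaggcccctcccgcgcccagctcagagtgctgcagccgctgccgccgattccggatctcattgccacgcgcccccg
ALDOC has 3 matches and LDHA 5. These letters occur in 5900 of 27305 promoters (21.6%), in 14 of 33 of the tested list members in the table (42.4%), in 13 of 26 that were called (50%) and in 1 of 7 that were not (14.3%). HK2 and INSIG2, both called higher, are among the 13, so the called group mixes directions. The group not called holds only 7 promoters, and whether the letters go with the call was not tested.

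ALDOC, with its values given above, had the largest difference of the list. LDHA, the lactate dehydrogenase subunit that closes glycolysis, was at 1029, 1021, 961 and 1048 CPM with siRNA-1, 662, 679, 743 and 729 with siRNA-2 and 963 to 1078 with the scrambled siRNA. The siRNA-2 libraries were the low group, and siRNA-1 overlapped scrambled (-0.53 ± 0.04 (SE), edgeR adjusted p = 1.82e-09). SLC2A3, the glucose transporter GLUT3, was at 79.7, 82.9, 84.6 and 86.5 CPM under siRNA-1 and 58.2, 57.1, 57.1 and 54.8 under siRNA-2 (-0.56 ± 0.04 (SE)), with scrambled at 58.8 to 62.8, so that siRNA-1 was the high group. BNIP3L, a mitophagy receptor, was at 63.8 to 67.5 and 45.96 to 48.6 CPM (-0.46), and its paralogue BNIP3 at 27.2 to 31.2 and 22.1 to 22.6 (-0.38). Of the enzymes along the pathway, HK1 (-0.23), PFKL (-0.20), ALDOA (-0.32), TPI1 (-0.10), GAPDH (-0.24), PGK1 (-0.25), PGAM1 (-0.38) and PKM (-0.12) were lower, while ENO1 (-0.07) and PFKP (0.08) were not called. The calls of TPI1 and PKM were lost without siRNA-1 replicate 1 (edgeR adjusted p of 0.0696 and 0.0720), siRNA-2 replicate 1 (0.0971 and 0.0683) or siRNA-2 replicate 2 (0.136 and 0.0788), and that of TPI1 also without siRNA-1 replicate 4 (0.0680). HK2 (0.28), SLC16A3 (0.21), NDRG1 (0.46) and INSIG2 (0.25) were the 4 higher. Among the 14 members that overlap no other tested gene, 9 were lower and 3 higher.

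In the lists for the respiratory chain, ribosome, translation, splicing and proteasome, lower calls outnumbered higher ones, with most members outside the respiratory chain either not called or higher. Nuclear-encoded respiratory chain genes were lower in 28 of 39 and higher in 0, with a median of -0.17. NDUFV2, a complex I subunit that shares reads with NDUFV2-AS1, was at 44.4 to 46.4 CPM under siRNA-1 and 34.6 to 40.2 under siRNA-2 (-0.30 ± 0.05 (SE)), and UQCRFS1, the Rieske protein of complex III, at 83.3 to 86.8 and 68.1 to 73.8 (-0.26 ± 0.04 (SE)). Ribosomal protein genes, whose processed copies in the genome can take some of their reads, were lower in 24 of 53 and higher in 0, with a median of -0.12. RPS27A, a ubiquitin-ribosomal fusion protein sharing reads with MTIF2, was at 41.3 to 46.7 and 33.7 to 37.01 CPM (-0.34 ± 0.05 (SE)), below the scrambled range of 53.6 to 66.96 with either siRNA. RPL38 was at 149 to 164 and 126 to 141 (-0.22 ± 0.04 (SE)). Translation factors were lower in 20 of 41 and higher in 6; EIF3C, a subunit of initiation factor eIF3 that has a near-identical copy, was at 339 to 360 and 242 to 266 CPM (-0.44 ± 0.04 (SE)). Splicing factors were lower in 16 of 38 and higher in 5, among the latter HNRNPF (0.51 ± 0.03 (SE)). Proteasome subunits were lower in 14 of 29 and higher in 1, with PSMB5 at -0.25 and PSMD4, the higher one, at 0.17.

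These members are abundant, and the share of lower calls over all genes was 33.1% at an average log2 CPM of 7 or more and 31.6% from 5 to 7. The counts also depended on single libraries. Ribosomal genes called lower were 15 without siRNA-2 replicate 1, 13 without siRNA-2 replicate 2, and 15 without the library of highest 45S share from each siRNA, which also left 12 translation factors and 9 splicing factors lower. Respiratory chain genes called lower were 22 then. The part of abundance and of ribosomal RNA in these counts was not tested.

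**Figure D4:**
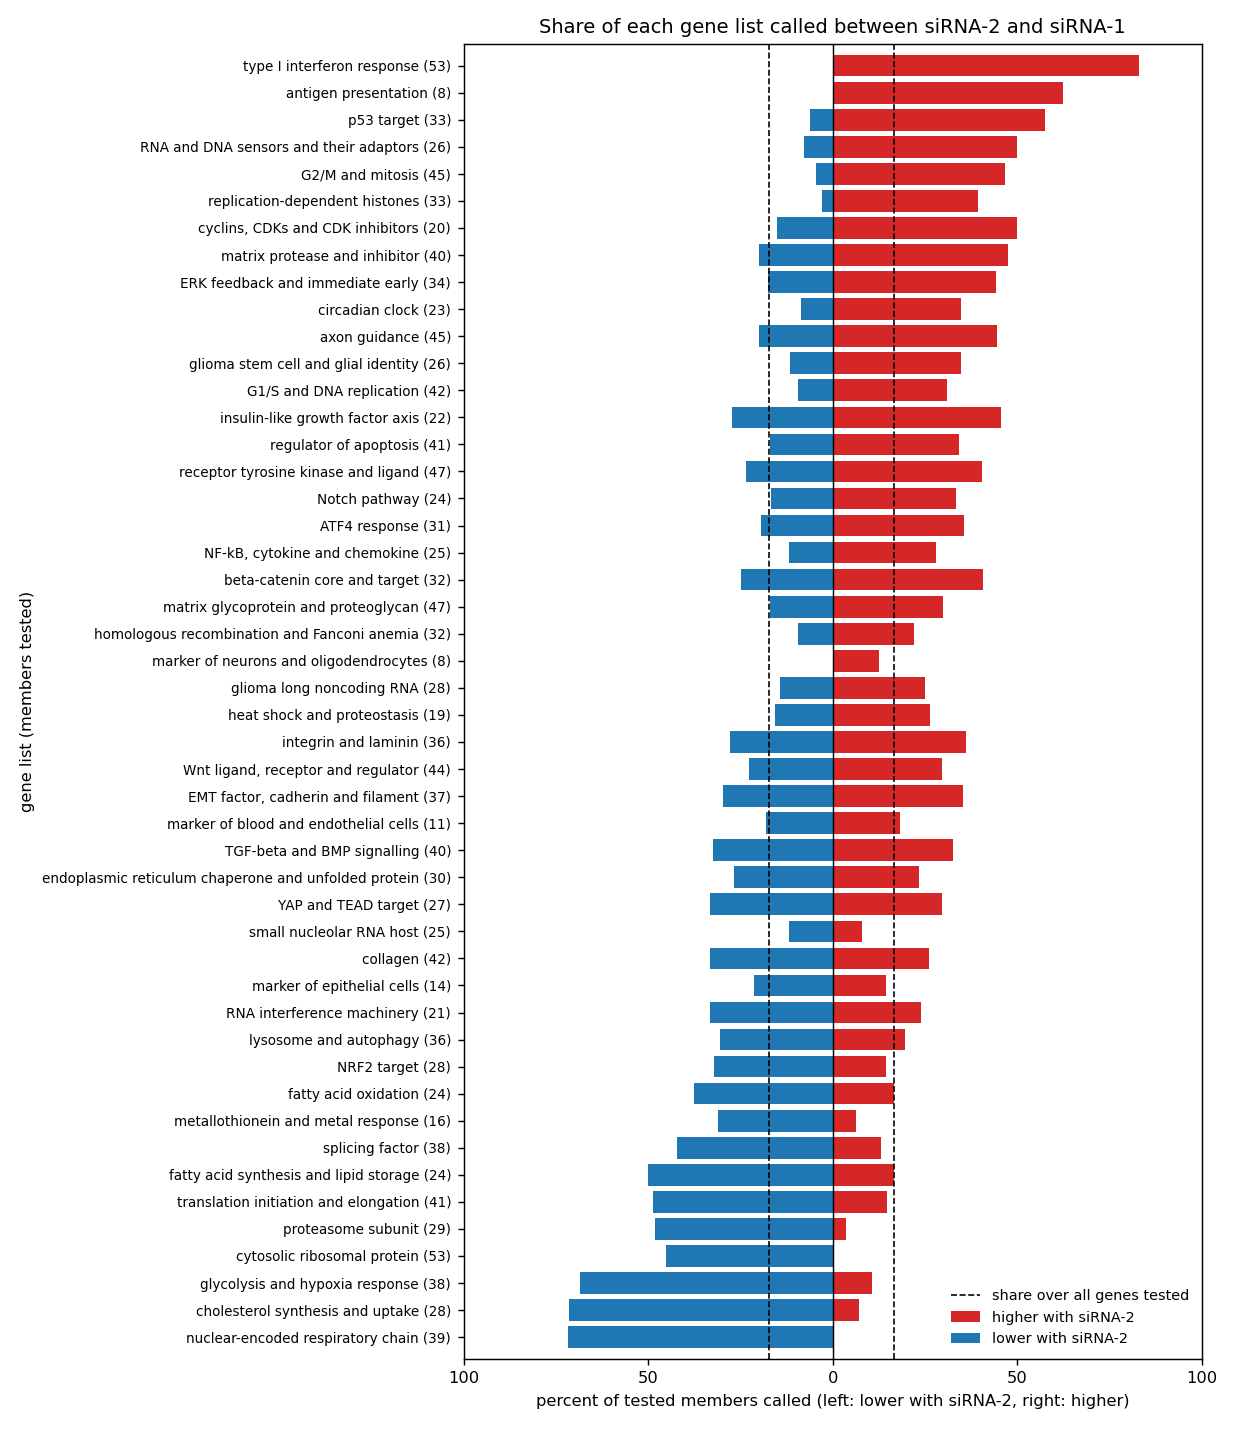
Share of each gene list's tested members (number in brackets) called higher with siRNA-2 (red, right) or lower (blue, left), in percent, ordered by the difference. Dashed lines mark 16.5% and 17.4%, the shares over all genes tested; the interferon list reaches 83.0% on the right, and the respiratory chain, cholesterol and glycolysis lists stand furthest to the left.

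**Figure D5:**
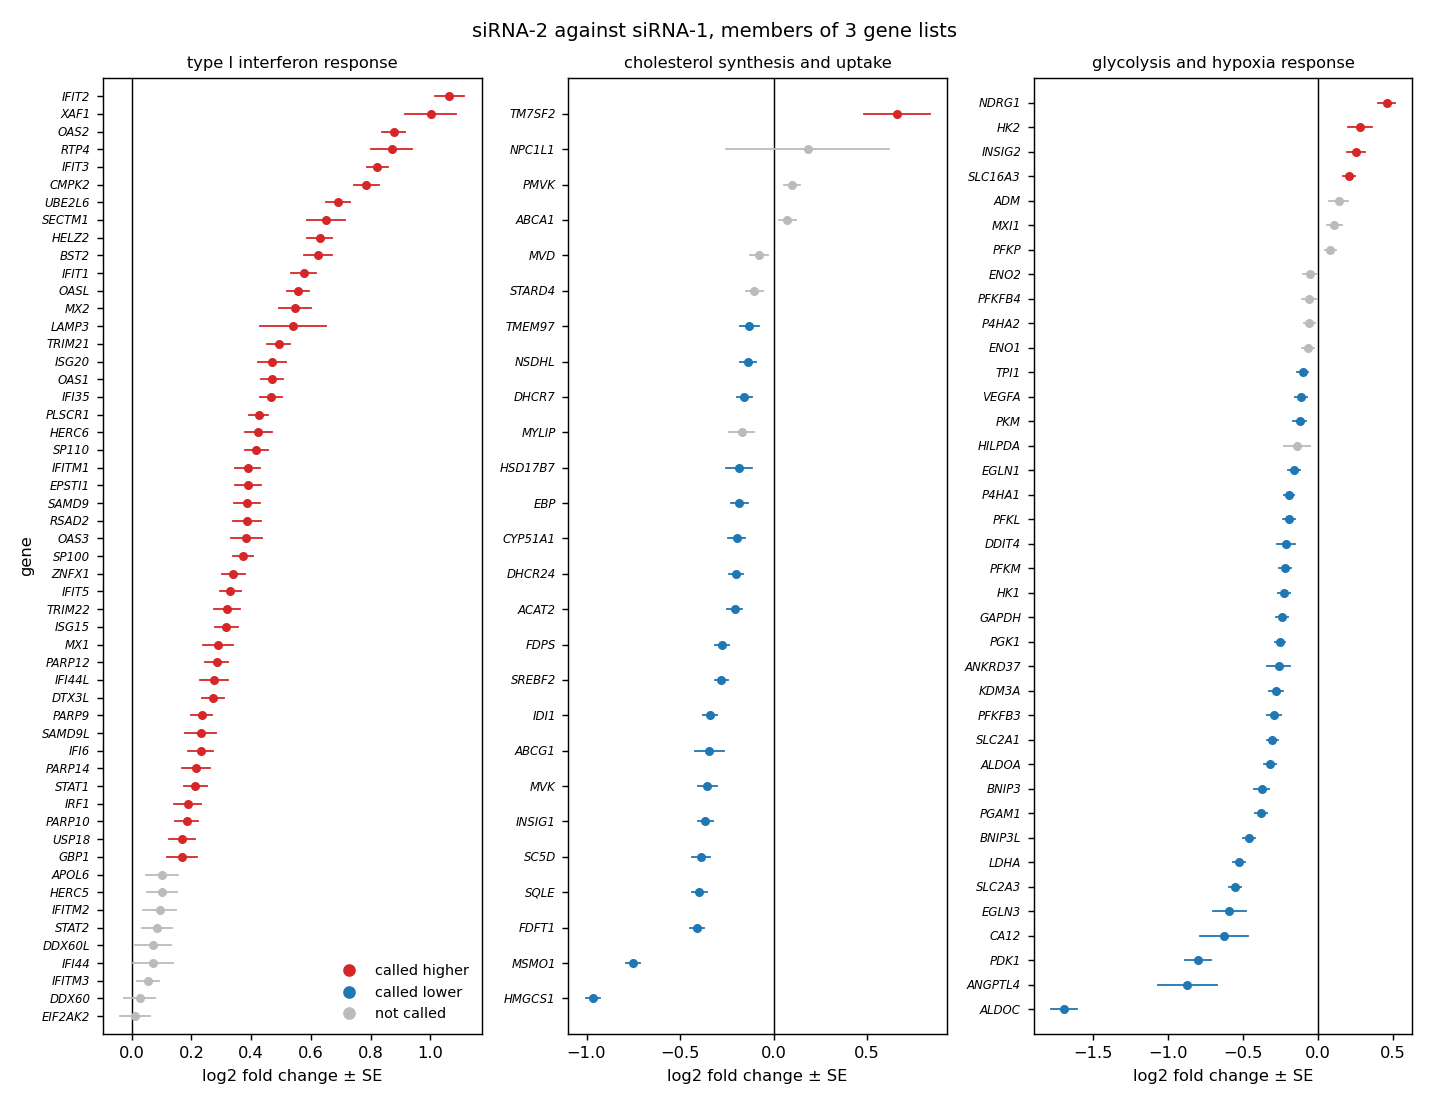
Log2 fold change of siRNA-2 against siRNA-1 with its standard error (x axis) for tested members of the interferon, cholesterol and glycolysis lists (2 of the 28 cholesterol members are not drawn), red where called higher, blue where called lower and grey where not called. Interferon members lie at or above 0, from 0.01 to 1.06, whereas HMGCS1 and ALDOC stand lowest in the other lists.

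Stress response lists held calls in both directions, at shares to be read against 19.1% higher and 23.6% lower among protein-coding genes. ATF4 response genes were 11 higher and 6 lower of 31, with MTHFD2 (0.39 ± 0.05 (SE)) higher and the amino acid transporter SLC7A5 (-0.46 ± 0.04 (SE)) lower. Endoplasmic reticulum chaperones were 7 higher and 8 lower of 30 (23.3% and 26.7%), near those shares. PDIA4, a protein disulfide isomerase, was at 186, 180, 182 and 195 CPM under siRNA-1 and 297, 310, 309 and 309 under siRNA-2 (0.72 ± 0.04 (SE), edgeR adjusted p = 1.16e-12), with scrambled at 243 to 260 between them. CREB3L2, a membrane-bound transcription factor, was lower, at 16.7 to 18.2 against 23.6 to 28.2 CPM (-0.56 ± 0.06 (SE)). Without siRNA-2 replicate 1, 5 chaperone genes were lower, and 4 without the highest 45S libraries. Heat shock genes were 5 higher and 3 lower of 19, 3 higher without any one of siRNA-1 replicate 1, siRNA-1 replicate 2 or siRNA-2 replicate 1. DNAJB1 (0.42 ± 0.04 (SE)) led the higher ones. Lysosome and autophagy genes were 7 higher and 11 lower of 36, NRF2 targets 4 and 9 of 28, and metal response genes 1 and 5 of 16. SRXN1 (0.42) was higher among NRF2 targets and GSR (-0.30) and ME1 (-0.40) lower.

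Genes of the extracellular matrix differed in both directions. Matrix glycoproteins were 14 higher and 8 lower of 47, and collagens and their modifying enzymes 11 higher and 14 lower of 42. THBS2, an anti-angiogenic matrix protein, was at 572, 601, 663 and 659 CPM with siRNA-1, 1200, 1142, 1208 and 1189 with siRNA-2 and 376, 371, 338 and 352 with the scrambled siRNA. The 3 groups were apart, in the order scrambled, siRNA-1, siRNA-2 (0.93 ± 0.04 (SE), edgeR adjusted p = 9.14e-13; shared with LOC101929523). FN1, fibronectin, was at 102, 114, 117 and 118 CPM under siRNA-1 and 203, 189, 207 and 196 under siRNA-2 (0.82 ± 0.04 (SE), edgeR adjusted p = 6.52e-12), with scrambled at 94.8 to 102. The interstitial collagen COL1A1 was at 173, 180, 208 and 209 CPM under siRNA-1 and 110, 111, 115 and 117 under siRNA-2 (-0.76 ± 0.06 (SE), edgeR adjusted p = 4.36e-07). Both lay above the scrambled range of 53.6 to 56.7, siRNA-1 further. COL4A1, a basement membrane collagen, was at 613 to 644 and 376 to 418 CPM (-0.67 ± 0.04 (SE)), and COL4A2, which pairs with it, at 849 to 931 and 696 to 744 (-0.32 ± 0.04 (SE)). COL13A1 (0.70) and COL7A1 (0.59) were higher, and TGFBI (-0.85) and CCN2 (-0.41) lower.

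Matrix proteases and inhibitors were higher in 19 of 40 and lower in 8, with a median of 0.15. These shares were 47.5% and 20.0%, against 19.1% and 23.6% of protein-coding genes. PLAT, tissue plasminogen activator, was at 1797, 1778, 1844 and 1906 CPM with siRNA-1, 3360, 3151, 3020 and 3046 with siRNA-2 and 823, 853, 782 and 792 with the scrambled siRNA. Each siRNA lay above scrambled, siRNA-2 further (0.78 ± 0.04 (SE), edgeR adjusted p = 2.47e-12). MMP1, an interstitial collagenase sharing reads with WTAPP1, was at 6.09 to 6.84 and 12.4 to 13.6 CPM (0.97 ± 0.07 (SE)), and TIMP2, a metalloproteinase inhibitor, at 1193 to 1331 and 979 to 1068 (-0.28 ± 0.04 (SE)). Integrin and laminin genes were 13 higher and 10 lower of 36 (36.1% and 27.8%). Without siRNA-2 replicate 1, without siRNA-2 replicate 2, or without the highest 45S libraries, 6 were lower. ITGA2, a collagen-binding integrin, was at 76.3 to 86.6 CPM under siRNA-1 and 137 to 146 under siRNA-2 (0.80 ± 0.04 (SE)). ITGA6, a laminin-binding integrin sharing reads with LOC101929947, was at 136 to 151, 225 to 243 and 234 to 261 CPM with siRNA-1, siRNA-2 and scrambled siRNA (0.67 ± 0.04 (SE)). ITGAV was lower, at 54.3 to 67.9 against 78.4 to 101 CPM (-0.52 ± 0.09 (SE)).

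Growth factor pathways held single ligands with large differences. Of receptor tyrosine kinases and their ligands, 19 of 47 were higher and 11 lower. These shares were 40.4% and 23.4%, against 19.1% and 23.6% of protein-coding genes. KITLG, the ligand of KIT, was at 5.47 to 6.16 CPM under siRNA-1 and 10.5 to 13.4 under siRNA-2 (1.04 ± 0.08 (SE)). MET, the receptor of hepatocyte growth factor, was at 41.6 to 46.1, 66.02 to 75.96 and 73.6 to 79.5 CPM with siRNA-1, siRNA-2 and scrambled siRNA (0.65 ± 0.05 (SE)), so that siRNA-1 was the low group. RET, the receptor of GDNF family ligands, was at 2.08 to 3.11 CPM under siRNA-1 and 0.863 to 1.58 under siRNA-2 (-1.14 ± 0.19 (SE)). ERK feedback and immediate early genes were 15 higher and 6 lower of 34 (44.12% and 17.65%). The ERK phosphatase DUSP7 was at 17, 16.7, 16.6 and 18.6 CPM under siRNA-1 and 42.2, 36.9, 37.7 and 37.6 under siRNA-2 (1.16 ± 0.05 (SE), edgeR adjusted p = 4.00e-13; shared with LOC105377089). FOSL1 (0.70, sharing reads with FIBP) was higher and JUNB (-0.51) and EGR1 (-0.40) lower, all AP-1 or immediate early factors. The insulin-like growth factor list was 10 higher and 6 lower of 22 (45.45% and 27.27%). Its binding proteins IGFBP3 (0.60 ± 0.05 (SE)) and IGFBP6 (0.60 ± 0.05 (SE)) were higher and IGFBP5 (-0.23 ± 0.04 (SE)) lower.

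TGF-beta and BMP signalling genes were 13 higher and 13 lower of 40 (32.5% each way, against 19.1% higher and 23.6% lower among protein-coding genes). TGFB2, a TGF-beta ligand, was at 142, 147, 156 and 139 CPM with siRNA-1, 87.2, 89.9, 83.4 and 88.6 with siRNA-2 and 69.3 to 79.4 with the scrambled siRNA. The siRNA-1 libraries stood highest, and siRNA-2 lay above the scrambled range by a small margin (-0.74 ± 0.04 (SE), edgeR adjusted p = 3.61e-12). FST, the activin antagonist follistatin, was at 2.31, 3.06, 3.23 and 2.73 CPM under siRNA-1 and 7.25, 8.07, 5.69 and 8.01 under siRNA-2 (1.36 ± 0.12 (SE), edgeR adjusted p = 3.06e-08), with scrambled at 2.85 to 3.58 beside siRNA-1. The inhibitor SMAD6 was lower (-0.68 ± 0.05 (SE)) and the BMP target ID1 higher (0.49 ± 0.04 (SE)). YAP and TEAD targets were 8 higher and 9 lower of 27 (29.6% and 33.3%), with NT5E (0.77 ± 0.04 (SE)) and NUAK2 (-0.97 ± 0.06 (SE)) at the ends.

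Wnt ligands, receptors and regulators were 13 higher and 10 lower of 44 (29.55% and 22.73%). The beta-catenin list was 13 higher and 8 lower of 32 (40.62% and 25.0%), with 5 lower without the highest 45S libraries. Both lower shares were near the 23.6% of protein-coding genes, of which 19.1% were higher. WNT5A (chr3:55464028-55505261), a ligand of non-canonical Wnt signalling, was at 126, 122, 127 and 126 CPM under siRNA-1 and 70.4, 69.3, 71.8 and 74.5 under siRNA-2. The scrambled libraries, at 63.3 to 70.3, overlapped siRNA-2 (-0.81 ± 0.04 (SE), edgeR adjusted p = 3.29e-13). WNT7B, a canonical ligand, was at 3.96, 4.07, 3.91 and 4.69 CPM under siRNA-1 and 9.11, 10.1, 8.86 and 8.55 under siRNA-2 (1.14 ± 0.09 (SE)), with scrambled at 3.03 to 3.76. FZD8, a Wnt receptor, was at 22.9, 21.8, 25.6 and 29.5, 71.6, 64.8, 64.3 and 63.8 and 56.1, 56, 55.8 and 50.4 CPM with siRNA-1, siRNA-2 and scrambled siRNA (1.41 ± 0.09 (SE); shared with LOC105376494), so that siRNA-1 was low. TCF7, a transcription factor of the pathway, was lower (-0.75 ± 0.06 (SE)). Notch pathway genes were 8 higher and 4 lower of 24 (33.3% and 16.7%), with 2 lower without the highest 45S libraries. The ligand JAG1 was at 2.84 to 3.09, 5.38 to 6.67 and 8.84 to 9.64 CPM with siRNA-1, siRNA-2 and scrambled siRNA (1.01 ± 0.10 (SE)).

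Axon guidance genes, which also steer tumour cell migration, were higher in 20 of 45 and lower in 9. These shares were 44.4% and 20.0%, against 19.1% and 23.6% of protein-coding genes. Among the 16 members that overlap no other tested gene, only 4 were higher and 3 lower, with a median of 0.06. SEMA3A (chr7:83955670-84515189), a repulsive semaphorin, was at 23.7, 25.96, 27.4 and 24.8 CPM under siRNA-1 and 59.1, 57.6, 60.01 and 59.9 under siRNA-2, against 33.04, 32.5, 30.7 and 32.8 with the scrambled siRNA. The 3 groups were apart, siRNA-1 below scrambled and siRNA-2 above (1.22 ± 0.05 (SE), edgeR adjusted p = 3.93e-14). SLIT2, a repellent ligand of ROBO receptors, was at 44.1, 43.7, 46.9 and 49.9 CPM under siRNA-1 and 86.7, 90.6, 93.8 and 94.5 under siRNA-2 (0.99 ± 0.05 (SE), edgeR adjusted p = 4.00e-13), with siRNA-1 overlapping scrambled (44.95 to 50.3). NRP1, the co-receptor of class 3 semaphorins, was at 186 to 200, 308 to 327 and 275 to 292 CPM with siRNA-1, siRNA-2 and scrambled siRNA (0.72 ± 0.04 (SE)). PLXNA1, a plexin that pairs with it, went the other way, at 491, 458, 432 and 460 CPM under siRNA-1 and 258, 274, 280 and 264 under siRNA-2 (-0.77 ± 0.04 (SE), edgeR adjusted p = 2.28e-12), as did PLXND1 (-0.52 ± 0.04 (SE)). SEMA3B was at 21.9 to 22.3, 44.8 to 56.1 and 10.6 to 13.1 CPM (1.14 ± 0.06 (SE); shared with LSMEM2).

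The list of factors of epithelial-mesenchymal transition, cadherins and filaments was 13 higher and 11 lower of 37 (35.1% and 29.7%). Of protein-coding genes, 19.1% were higher and 23.6% lower. TPM1, tropomyosin of actin filaments, was at 593, 588, 512 and 558 CPM with siRNA-1, 275, 295, 300 and 301 with siRNA-2 and 358 to 391 with the scrambled siRNA, which lay between the siRNAs (-0.94 ± 0.04 (SE), edgeR adjusted p = 1.16e-12). PRRX1, a mesenchymal transcription factor, was higher (0.81 ± 0.05 (SE)), and ACTA2 (1.16 ± 0.12 (SE)), smooth muscle actin, shares reads with FAS and STAMBPL1. Of 26 tested glioma stem cell and glial genes, 9 were higher and 3 lower, 46.2% called against 42.6% of protein-coding genes. NES, the intermediate filament nestin, was at 546, 480, 491 and 565 CPM under siRNA-1 and 331, 380, 375 and 382 under siRNA-2 (-0.50 ± 0.06 (SE), edgeR adjusted p = 1.96e-05). SOX4 was lower (-0.70 ± 0.04 (SE)) and LHX9 higher (0.76 ± 0.04 (SE)), whereas SOX2 (-0.05), OLIG2 (0.12) and GFAP (-0.17) were not called.

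The RNA interference machinery, through which both siRNAs act, was higher in 5 of 21 and lower in 7. These shares were 23.8% and 33.3%, against 19.1% and 23.6% of protein-coding genes. DICER1, which cuts double-stranded RNA into short duplexes, was at 45.7, 49.7, 47.2 and 43.95 CPM with siRNA-1, 32.96, 35.5, 33.99 and 35.6 with siRNA-2 and 59.1, 62.1, 58.7 and 60.2 with the scrambled siRNA. Both siRNAs lay below scrambled, siRNA-2 further (-0.43 ± 0.05 (SE), edgeR adjusted p = 2.36e-07). AGO2, the slicing Argonaute, was at 47.2 to 52.1, 36.3 to 42.1 and 50.1 to 56.03 CPM with siRNA-1, siRNA-2 and scrambled siRNA (-0.35 ± 0.05 (SE); shared with CHRAC1), and AGO1 was lower too (-0.26 ± 0.05 (SE)). TNRC6A, a silencing scaffold that binds Argonaute, was higher (0.27 ± 0.04 (SE)). XPO5 (-0.00) and TARBP2 (-0.02) were not called.

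Of apoptosis regulators, 14 of 41 were higher and 7 lower. These shares were 34.15% and 17.07%, against 19.1% and 23.6% of protein-coding genes. CASP2, an initiator caspase, was at 29.1 to 31.6, 46.7 to 48.4 and 45.8 to 49.7 CPM with siRNA-1, siRNA-2 and scrambled siRNA (0.63 ± 0.04 (SE)), and BCL2L11, the death-promoting protein BIM, at 54.7 to 62.01, 36.2 to 41.6 and 39 to 41.2 (-0.53 ± 0.05 (SE)). In both genes siRNA-2 lay at the scrambled level and siRNA-1 apart from it. Clock genes were 8 higher and 2 lower of 23 (34.8% and 8.70%), with NPAS2 at 11.4 to 13.3 and 20.2 to 23.99 CPM (0.82 ± 0.07 (SE)). Homologous recombination and Fanconi genes were 7 higher and 3 lower of 32, and hosts of small nucleolar RNAs 2 higher and 3 lower of 25. The shares called either way, 31.25% and 20.0%, were below the 33.8% of all genes tested. The higher share of the recombination list alone, 21.9%, was above the 16.5% of all genes and near the 19.1% of protein-coding genes. Among its 12 members that overlap no other tested gene, 1 was higher and 1 lower. Of long noncoding RNAs studied in glioma, 7 of 28 were higher and 4 lower. UCA1, sharing reads with LINC01764, was at 139 to 148, 62.1 to 75.5 and 45.1 to 52.03 CPM with siRNA-1, siRNA-2 and scrambled siRNA (-1.08 ± 0.05 (SE)), and NORAD was lower (-0.31 ± 0.04 (SE)).

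Markers of other cell types were followed as lists. Blood and endothelial markers were called higher in 2 and lower in 2 of 11 tested, and 9 others, among them CD3E, HBB and CLDN5, had too few reads to test (CD3E 1 read with siRNA-1 and 2 with siRNA-2, HBB 0 and 5). The list's summed level was 260.6 to 268.1 CPM under siRNA-1, 320.0 to 344.7 under siRNA-2 and 286.1 to 314.6 with the scrambled siRNA, and without CD68 it was 180.3 to 197.0, 163.7 to 183.9 and 243.6 to 279.2. CD68, a lysosomal protein of macrophages that other cells also express, was at 63.6 to 81.3 and 149 to 181 CPM (1.10 ± 0.09 (SE); shared with LOC100996842). CD14 (0.50) was the other higher member, and CSF1R (-0.14, at 168 to 184 and 152 to 174 CPM) and VWF (-1.24, under 2 CPM) were lower. The siRNA groups overlapped in CD14 and CSF1R. The call of CD14 was lost without any one of siRNA-1 replicates 1, 2 or 4 or siRNA-2 replicates 2 or 3 (edgeR adjusted p of 0.113, 0.0924, 0.0557, 0.134 and 0.0924). That of CSF1R was lost without siRNA-1 replicate 1 or siRNA-2 replicate 1 or 2 (0.0578, 0.0577 and 0.0809). Neuron and oligodendrocyte markers were called higher in 1 of 8 tested, SLC17A7 (0.97 ± 0.30 (SE), under 1 CPM), a call lost without siRNA-1 replicate 1 (edgeR adjusted p = 0.0504), with summed levels of 450.1 to 484.9 and 446.3 to 466.9 CPM, against 280.3 to 309.8 with the scrambled siRNA. Epithelial markers were 2 higher and 3 lower of 14, at 2121 to 2232 CPM under siRNA-1 and 1499 to 1563 under siRNA-2 and 1062 to 1210 with the scrambled siRNA, shares near those of all genes tested (14.3% and 21.4% against 16.5% and 17.4%). KRT8 (-0.60 ± 0.04 (SE)) and KRT18 (-0.44 ± 0.03 (SE)), whose spans share reads and which made up most of that sum, and EPCAM (-0.83) were lower, and KRT19 (0.46) and ELF3 (0.59) were higher. A change in the share of cells and one in RNA per cell cannot be told apart in bulk RNA, and the part of other cell types in the results was not tested.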

How the data were processed

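RNA sequencing of 8 siRNA libraries from total RNA, with 4 scrambled libraries as reference, gave the raw whole-number counts that the authors deposited for 49731 intervals in 1 table, without normalization. Per the submitters' processing notes Salmon and the hg38 build were used, with no version stated. From the 48769 gene intervals, 4424 were left out: 1984 reached over 100000 bases beyond the gene of that name, 74 over 1000000 bases long had no match in the reference, 1200 held the same counts as an overlapping interval, 1080 had an older name of another gene, and 86 were ribosomal RNA, numbers, chromosome Y copies or repeats. The 45S stretch was taken as chr21:8205988-8446572. Reads per library are given above; counts set the precision, and intervals cover counting error only.

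The gene test was edgeR's (version 4.0.16, in R 4.3.3), with TMM scaling over 12 libraries, filterByExpr (minimum count 10, total 15), a robust quasi-likelihood fit of the 8 siRNA libraries with siRNA as the term, and Benjamini-Hochberg adjustment at 0.05 over all genes tested. SE is the absolute log2 fold change over the square root of F. CPM uses the scaled library sizes. The fit was also run on simulated data with a fixed spread and few changed genes, unlike these data. That run does not bear on the calls. A partner, named for part of the genes, is an overlapping span whose own reads come to at least 20% of the gene's. The reads held in common were not counted. Log2 ratios to the scrambled mean have 0.05 CPM added.

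The text draws on genes named by a rule: among called genes whose siRNA groups do not overlap, the 10 largest fold changes each way with an average log2 CPM of 1 or more, the 6 smallest p-values each way with one of 5 or more, up to 4 called members each way of 48 gene lists by p, and uc.110 with its gene. Other members of a list, such as GDF15, CDKN1A, FDXR, BST2, HERC5, GAREM2 and enzymes of glycolysis, were named after their values were seen, and a few members counted in the lists are not reported by name here. Members and lists were chosen with earlier results of these data known. Alternatives were other scalings, filters, gene sets and fits, DESeq2 1.42.0, a replicate block, and libraries left out.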

Additional observations from a re-analysis of the deposited data

Results flagged for a closer look

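In 382 groups of 4 libraries (each siRNA, each gene with values in the text), 20 held a library that stood apart, its gap to the nearest other taking up more of the group's range than Dixon's limit at the 95% level allows. Chance flags about 1 in 20. Of these, 9 were in siRNA-2 replicate 1: BCL2L11 at 36.2 CPM, BNIP3L at 45.96, NES at 331, PDIA4 at 297 and SCD at 1092 were the lowest of their group, and DDB2 at 84.7, DUSP7 at 42.2, FDXR at 54.6 and FZD8 at 71.6 the highest. In siRNA-2 replicate 2, FASN at 983 CPM and GFAP at 7.02 were lowest. In siRNA-2 replicate 3, E2F7 at 68.8 CPM was lowest, and SERPINA5 at 2.48 and TOP2A at 282 were highest. DHX58 was highest in siRNA-2 replicate 4, at 78.1 CPM. With siRNA-1, OLIG2 at 7.81 CPM was lowest and PSMB5 at 103.1 highest in replicate 2, POLA1 at 88.7 CPM and TARBP2 at 27.45 were lowest in replicate 3, and SERPINH1 was highest in replicate 4, at 312 CPM.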

How the results depend on the processing

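The counts over all genes, 4003 higher and 4224 lower with siRNA-2, ran from 3789 to 4229 higher and from 3827 to 5553 lower over other scalings, filters, tools and the fits with 11 or 12 libraries or the replicate block, and DESeq2 shared 95.1% of the calls. Fitting protein-coding genes alone gave 3104 and 3323. With the 8088 genes that overlap no other tested gene, fewer genes entered and 1385 were higher and 1318 lower. Leaving out 1 library gave 3516 to 3739 higher and 3593 to 4144 lower, and leaving out the highest 45S library of each siRNA 3508 and 3297. The fit with 11 libraries was chosen after seeing the data. The labels number the samples, but same-numbered samples did not deviate together (correlations of -0.13, 0.07, -0.14 and -0.04), so the numbers were not taken as pairs; the replicate block gave 3789 higher and 3972 lower, sharing 92.6% of the calls, and lost the calls of CDKN1A and GDF15.

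Of the 191 genes with values in the text, none changed direction while called. With 12 libraries in the fit, OAS1, OAS2, DDX58, BST2 and ZMAT3 lost their calls (edgeR adjusted p of 0.175, 0.0655, 0.0616, 0.0726 and 0.101). CDKN1A, GDF15, SLC17A7, TPI1, PKM, CD14 and CSF1R lost their calls without single libraries, as given above; without the highest 45S libraries CDKN1A, TPI1, PKM and CD14 did too. MAD2L1 and BORA lost theirs under the latter alone. APOL6, CCNB1, GFAP and PFKP, not called, gained a call under at least 1 alternative. The cause was not tested. Of 1920 list counts over the alternatives, 122 moved by over 1.5 times, most where genes that overlap others were left out. List medians for NF-kB, metal response, TGF-beta, YAP, Wnt, epithelial-mesenchymal and blood and endothelial genes changed sign among alternatives and carry no direction. That of the beta-catenin list, 0.122 in the main fit, was -0.004 among its 13 members that overlap no other tested gene (3 higher, 2 lower). Depth limits uc.110 and the interferon transcripts.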
